A study of Mus musculus with 12 samples.

Results

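The Fto and Irx locus of mouse chromosome 8 was described by 5 neighbouring genes, Rpgrip1l, Fto, Irx3, Irx5 and Irx6, and by the FLAG-Zscan4 regions in and around them. The genes were chosen because the region list itself showed 9 regions inside Fto, so the number, place, width and score of the regions are given as a description and no test was run on them. A region belonged to a gene when its midpoint lay in the gene body or within 50 kb of either end. By that rule the 5 genes had 11 of the 4973 listed regions, and chromosome 8 had 461 in all. The locus was taken as the stretch from 50 kb before Rpgrip1l to 50 kb after Irx6 (mm10, chromosome 8, 91167030 to 92730956, 1.56 Mb), and it held 13 regions.

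The regions came from 1 sample, an anti-FLAG immunoprecipitation of J1 mouse embryonic stem cells (strain label 12910la) that overexpress Zscan4. J1 is an established line, and the cells carried a plasmid with the coding sequence of Zscan4c in a pCMV-FLAG vector. They were transfected with 1000 ng of plasmid, selected from 24 h onward with G418 at 500 ug/ml for 10 days, and picked as single clones; the labels do not say whether the library came from 1 clone or several. The input of this sample, also from overexpressing cells, and the other 10 of the 12 labelled samples (6 histone mark immunoprecipitations and 4 inputs, wild-type or overexpressing) were not analysed here, nor was a FLAG immunoprecipitation from wild-type cells. Each group had 1 sample, so no value below has a replicate error. A region list holds no expression values, so the cell type was not checked against markers.

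Fto encodes an AlkB-type dioxygenase that removes methyl groups from adenosine in RNA. It is known for non-coding variants within the human gene that go with body mass, and distant enhancers in that interval contact the promoters of IRX3 and IRX5. Rpgrip1l, which lies head to head with Fto, encodes a protein of the ciliary transition zone, the gate at the base of the cilium. Irx3, Irx5 and Irx6 encode Iroquois homeodomain transcription factors that pattern the neural tube, heart and limb. Zscan4c, the immunoprecipitated protein, has a SCAN domain and zinc fingers, and its gene is known as a marker of the earliest embryo and of a rare state of embryonic stem cells. The question for this locus was where the tagged protein was listed relative to the genes and their promoters.

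Promoters are given first, because transcription factors are often sought there and none of those examined was overlapped by a listed region. RefSeq promoter windows (GRCm38.p6, the same primary sequence as mm10, 250 bases before to 50 after the start site) matched 3 of the 5 genes: Fto, Rpgrip1l and Irx3. Irx5 and Irx6 had no entry. The Fto and Rpgrip1l gene bodies are 75 bp apart, and their promoter windows share 198 bases. The Fto window (chr8:91313275-91313574, plus strand) is printed with those shared bases in capitals. The Irx3 window (chr8:91801605-91801904, minus strand) is printed because the region nearest to any of the 3 Irx genes lay upstream of it. It is in lower case throughout.
Fto: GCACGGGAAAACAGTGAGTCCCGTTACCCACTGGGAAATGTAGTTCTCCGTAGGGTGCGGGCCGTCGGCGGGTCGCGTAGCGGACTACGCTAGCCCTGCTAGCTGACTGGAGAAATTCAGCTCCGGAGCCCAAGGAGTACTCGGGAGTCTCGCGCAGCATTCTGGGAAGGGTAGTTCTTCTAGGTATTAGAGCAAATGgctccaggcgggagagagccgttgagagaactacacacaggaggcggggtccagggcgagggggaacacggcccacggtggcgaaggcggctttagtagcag
Irx3: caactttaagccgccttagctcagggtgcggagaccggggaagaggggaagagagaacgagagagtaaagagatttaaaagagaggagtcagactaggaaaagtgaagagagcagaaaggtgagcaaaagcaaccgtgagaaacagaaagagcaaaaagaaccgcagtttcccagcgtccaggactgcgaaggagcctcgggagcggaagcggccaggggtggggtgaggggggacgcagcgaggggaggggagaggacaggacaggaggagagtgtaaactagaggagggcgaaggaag

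The Fto window is rich in CpG, with a GC content of 60.7% and 23 CpG dinucleotides, and the Rpgrip1l window had 60.0% and 22. The Irx3 window had a GC content of 56.0% and 14 CpG. Over all 32851 promoter windows of the table the medians were 52.7% and 7. The nearest edge of a listed region was 23.2 kb from the Fto window and 10.7 kb from the Irx3 window. Listed regions were rare in promoters everywhere, at 0.131% of all windows, so their absence from the 3 promoters is no feature of the locus.

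The windows were also searched on both strands for TGCACAC, a short motif reported for ZSCAN4, and for a run of 5 CA units. None of the 3 gene promoters held either, against 4.4% and 1.61% of all promoter windows. Of the 18 promoter windows in the locus, 1 held TGCACAC and none held the CA run, and none was overlapped by a region. That window belongs to 4831440D22Rik, a long non-coding RNA gene that lies inside Fto (chr8:91467714-91468013, minus strand). It is printed with the motif, here on the opposite strand, in capitals, and was chosen after the search.
4831440D22Rik: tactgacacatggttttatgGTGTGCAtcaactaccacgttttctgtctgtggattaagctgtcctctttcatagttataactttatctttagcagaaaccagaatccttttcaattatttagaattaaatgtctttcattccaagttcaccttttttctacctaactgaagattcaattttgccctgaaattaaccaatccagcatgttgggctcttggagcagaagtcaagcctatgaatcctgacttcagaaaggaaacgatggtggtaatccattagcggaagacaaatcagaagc
The region nearest to this window ended 29.2 kb away and had a score of 57. A match to these letters is a description only, and the sequence under the regions themselves was not used here.

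Fto (gene ID 26383, chromosome 8, 91313367 to 91668433, 355 kb, plus strand) held 9 regions in its body and no further one within 50 kb. The score quoted for each region is the authors' own whole number on a scale that no source used here gives, and it ranks regions within the list only. The first region (91336774 to 91337200, 427 bp, score 23) lay 23.6 kb into the gene. It also counted for Rpgrip1l. No region was listed between the shared promoter and this one.

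A group of 6 regions followed, between 22.9% and 35.2% of the way along the gene. It opened at 81.4 kb into Fto with a region of 366 bp and score 35 (91394627 to 91394992). The highest score of the locus, 61, belonged to the next (91414125 to 91414796), which was also the widest at 672 bp. After it came a region of 361 bp and score 23 (91416384 to 91416744), with midpoints only 2.10 kb apart. These were followed at 6.72 kb by one of 392 bp and score 34 (91423087 to 91423478). The group closed with the tightest pair of the locus, whose midpoints were 1.03 kb apart: a region of 229 bp and score 23 (91437161 to 91437389) and one of 336 bp and score 57 (91438136 to 91438471). These 6 regions spanned 43.8 kb, which is 12.3% of the gene with 66.7% of its regions. The group was marked off after these positions were seen. These shares, and the rate given below for the rest of Fto, thus follow in part from that choice.

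The remaining regions of Fto were more widely set. One of 349 bp and score 35 (91511553 to 91511901) lay 198 kb into the gene and one of 269 bp and score 23 (91553537 to 91553805) at 240.3 kb. The last 115 kb of Fto held none. With the gene divided into 4 equal parts from its 5′ end, the numbers were 2, 5, 2 and 0. Outside the group of 6, the other 3 regions over 311 kb made 9.64 per Mb.

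**Figure D1:**
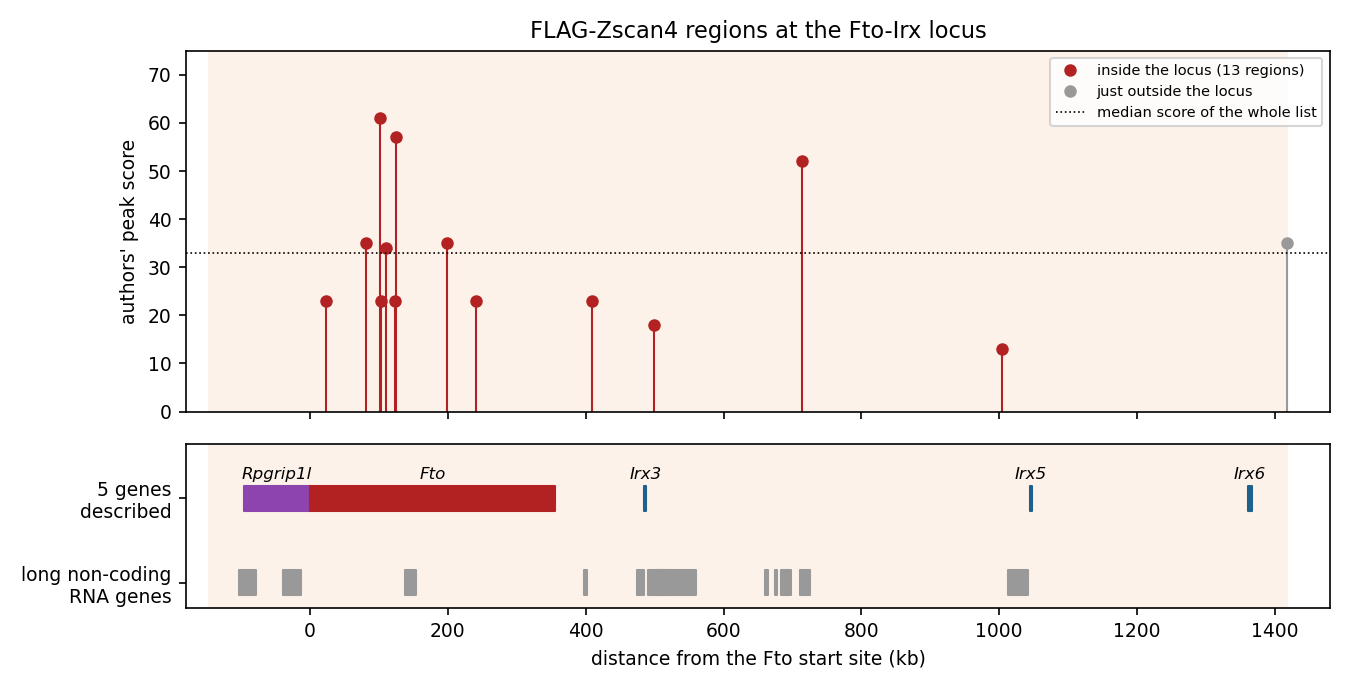
Upper panel, authors' peak score (vertical axis) of each FLAG-Zscan4 region by distance of its midpoint from the Fto start site in kb (horizontal axis), with the 13 regions of the locus in red, the next one outside in grey and the median score of the list, 33, as a dotted line. Lower panel, the 5 genes and the long non-coding RNA genes to scale, with the locus shaded. The regions crowd inside Fto, while Rpgrip1l, Irx3, Irx5 and Irx6 have none in their bodies.

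**Figure D2:**
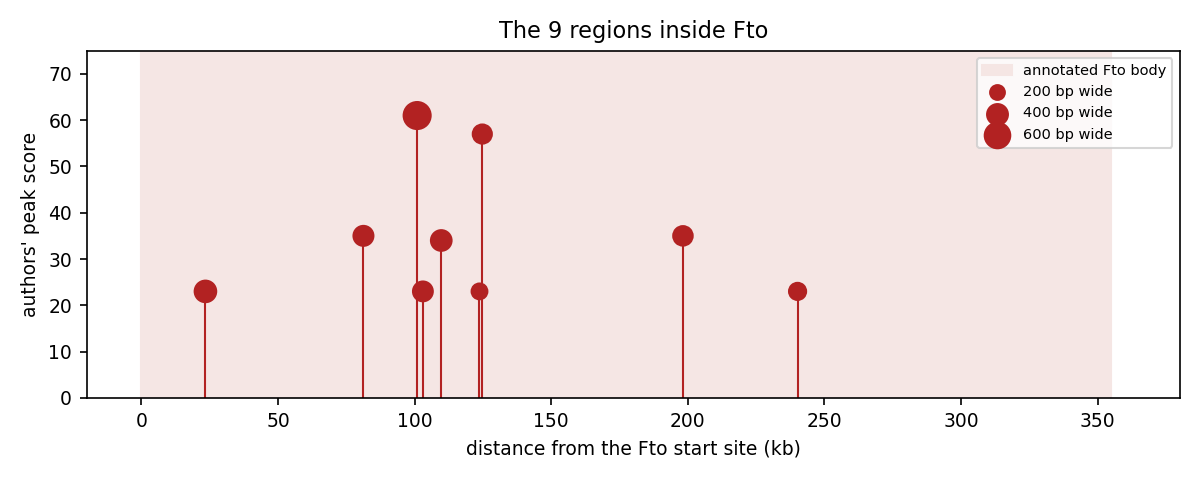
Authors' peak score (vertical axis) of the 9 regions inside Fto by distance from its start site in kb (horizontal axis), with point area in proportion to region width and the annotated gene body shaded. The group of 6 regions lies between about 81 and 125 kb, and the highest score, 61, belongs to the widest region, of 672 bp.

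Rpgrip1l (gene ID 244585, 91217030 to 91313291, 96.3 kb, minus strand) had no region in its body. Its 1 region within 50 kb was the first of Fto, at 23.7 kb from the end that holds its own start site. The gene sat inside a stretch of 477 kb without a listed midpoint, from 90860025 to 91336987. That stretch also holds Rbl2, a retinoblastoma family gene, and Aktip, which encodes an AKT-interacting protein. Of the 460 distances between neighbouring regions on chromosome 8, 13.9% were longer.

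The Iroquois genes had few regions and none in their bodies. Irx3 (gene ID 16373, 91798511 to 91801654, 3.14 kb, minus strand) had 1 within 50 kb, at 11.1 kb upstream (91812558 to 91812926, 369 bp, score 18). This region lay in the body of Irx3os, a long non-coding RNA gene beside Irx3. Irx5 (gene ID 54352, 92357796 to 92361456, 3.66 kb) had 1 at 39.7 kb (92317929 to 92318236, 308 bp, score 13), the lowest score of the locus. It was in no annotated gene and lay 7.95 kb from Crnde, the long non-coding RNA gene next to Irx5. Irx6 (gene ID 64379, 92674289 to 92680956, 6.67 kb) had none within 50 kb.

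The 50 kb limit decided 2 of these assignments. The region nearest to Irx6 (92732010 to 92732243, score 35) lay at 51.2 kb, just outside. A region beyond the 3′ end of Fto (91721824 to 91722044, 221 bp, score 23) lay at 53.5 kb from Fto and 76.6 kb from Irx3, so it counted for neither. The farthest region inside the limit was that of Irx5 at 39.7 kb. Between Irx3 and Irx5 a further region of score 52 (92027027 to 92027334, 308 bp) lay in the body of the long non-coding RNA gene Gm28516, 226 kb from Irx3 and 331 kb from Irx5. From the region of Irx5 onward, 414 kb held no listed midpoint, and Irx5 and Irx6 both lie in that gap; 15.9% of the distances on the chromosome were longer.

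Set beside chromosome 8 protein-coding genes of like span (0.5 to 2 times that of the gene, with the 5 genes left out), Fto stood at the top. Its 37 counterparts had a median of 1 region in the body or within 50 kb and at most 5, and 62.2% of them had any. None reached 9. In the body alone, 43.2% had any, and together they held 30 regions over 12.7 Mb, or 0.236 per 100 kb. Fto had 2.53 per 100 kb, which was 10.7 times that rate. Since Fto was picked for this number, its place at the top was fixed by the choice.

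The counterparts with the most regions were Stox2 with 5, Slc10a7 and Ttc29 with 4 each, and Zmat4, Fam155a and Dlc1 with 3 each. Stox2, which encodes a storkhead-box protein, had all 5 in its body of 234 kb, or 2.14 per 100 kb. Its scores were 65, 23, 88, 18 and 23 along the chromosome. As in Fto, several lay close together, with successive midpoints 105, 10.7, 4.84 and 2.54 kb apart. Ttc29 had none of its 4 in the body, so they all lay in its flanks. The 10 counterparts with a region in the body and a known strand were pooled and divided into 4 equal parts from the 5′ end. They had 4, 8, 2 and 5 regions, against 2, 5, 2 and 0 in Fto. The pool held 19 of the 30 body regions, from 10 of the 16 counterparts with any. The close regions of Stox2 lay in the second part, so the 8 there rest in good part on that gene. No shared pattern along the gene is read from these numbers.

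**Figure D3:**
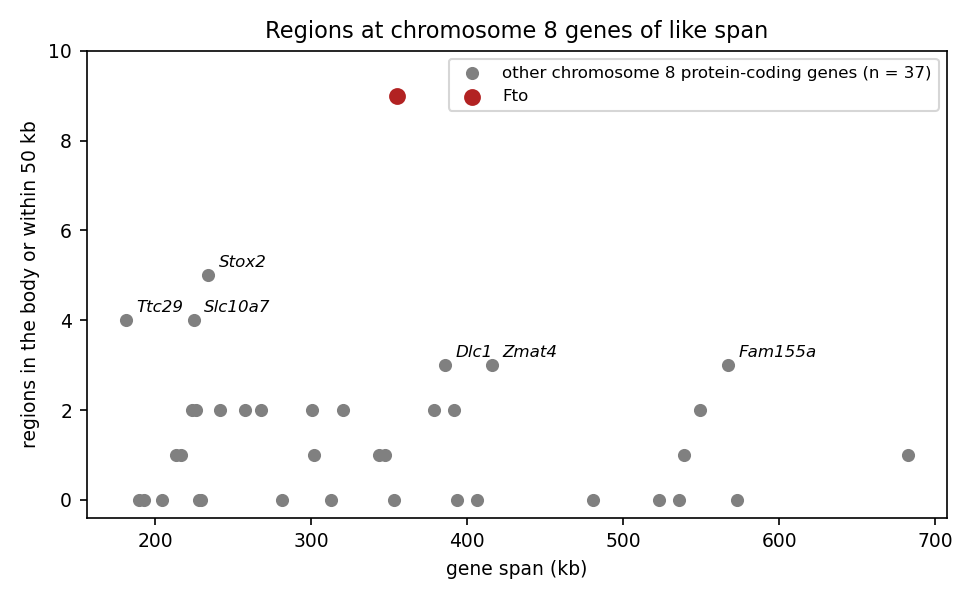
Number of FLAG-Zscan4 regions in the gene body or within 50 kb (vertical axis) against gene span in kb (horizontal axis) for Fto (red) and the 37 other chromosome 8 protein-coding genes of 0.5 to 2 times its span (grey). Fto has 9 and the next gene, Stox2, has 5.

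Over the whole genome, 1029 other protein-coding genes had a span like that of Fto, and 669 of them had no region in the body. Of the 1029, 3 had more regions per 100 kb of body than Fto: Zfp704, Gm26650 and Ulk4, the last named after its values were seen. The genes nearest to it in this rate were Zfp978 (6 regions, 2.25 per 100 kb), Stox2, Zfp704 (6 regions, 3.28), Gm26650 (6 regions, 3.32) and Zfp993 (8 regions, 1.67). Their median scores lay on either side of that of Fto, which was 34. The range of each overlapped that of Fto, 23 to 61. Zfp978 and Zfp993, zinc finger genes of chromosome 4, had medians of 81.5 and 78.5, and Gm26650 had 61. Zfp704, a zinc finger gene of chromosome 3, and Stox2 had 24.5 and 23. The scores of these last genes ran from 10 to 83 and from 18 to 88, past both ends of the range of Fto. Among all 21779 protein-coding genes, 2 had 9 or more regions in the body, namely Ulk4 and Fto. With 50 kb flanks, 4 of 984 like-span genes on the autosomes had as many as Fto or more: Ulk4, Zfp978 and Zfp993 with 12 each and Gm26650 with 9.

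The other genes of the locus did not stand out among genes of like span. For Rpgrip1l, 52.4% of 170 such genes had at least 1 region in the body or within 50 kb and 43 had more than its 1. For Irx3 the share was 29% of 183 genes, for Irx5 30.4% of 194 and for Irx6 28.7% of 272. The median was 0 in each of these 3 sets, as for Irx6. Irx3 and Irx5 were thus among the smaller share of genes of their size with any region, and 15 of the 183 and 16 of the 194 had more than 1. Genes between 19 and 21 Mb, where regions are dense, were not left out of these sets.

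The locus as a whole had 8.31 regions per Mb (95% exact Poisson interval 4.43 to 14.2, counting error only), against 3.59 (3.27 to 3.94) on the rest of chromosome 8. The ratio was 2.31. The locus was chosen with its number of regions known, and regions on this chromosome clump, so these intervals are no test of a difference. Chromosome 8 has 90 regions between 19 and 21 Mb, and without that stretch the rest stood at 2.92 per Mb, a ratio of 2.85. The difference lay in Fto. Its body had 25.3 regions per Mb (11.6 to 48.1), while the 1.21 Mb of the locus outside Fto had 4 regions, or 3.31 per Mb (0.902 to 8.47), 0.921 times the rest of the chromosome. Cut into 79 other windows of the same length, chromosome 8 had a median of 3 regions per window (0 to 83), and 7 windows held 13 or more. The number in the locus was thus high but not rare for a stretch of this length.

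The spacing in Fto follows in large part from the number that chose it, since 9 regions in 355 kb must lie close together, and it is given as a description. The 8 distances between neighbouring midpoints in Fto ran from 1.03 to 73.4 kb with a median of 16.8 kb, and the median on chromosome 8 was 89.0 kb, or 134 kb without 19 to 21 Mb, a setting added after the data were seen. In Fto 5 of 9 regions had a neighbour within 10 kb, against 162 of 461 (35.1%) on chromosome 8 and 85 of 371 (22.9%) without 19 to 21 Mb. The 4 other distances in the locus ran from 90.8 to 291 kb, all above 89.0 kb and 3 of them above 134 kb.

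**Figure D4:**
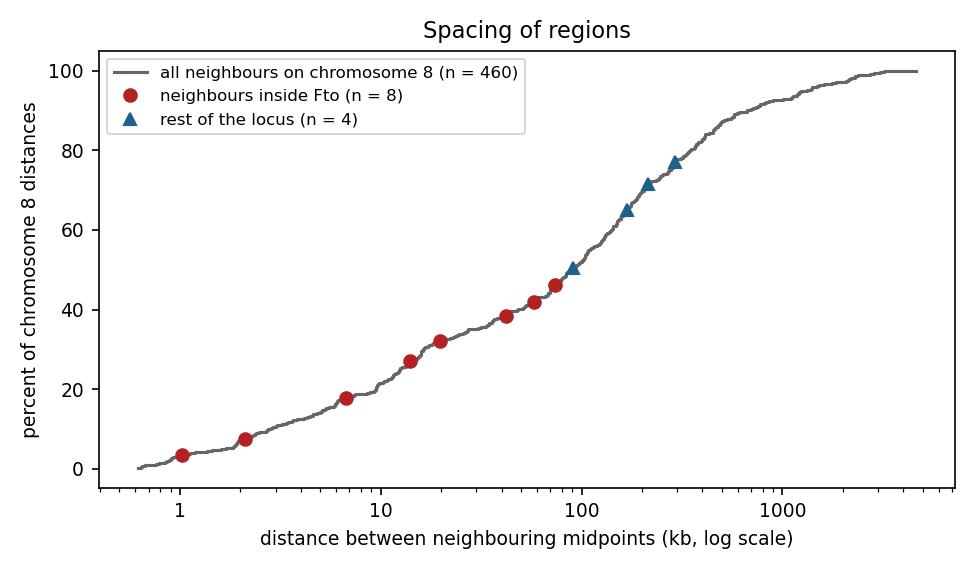
Percent of the 460 distances between neighbouring region midpoints on chromosome 8 (vertical axis) that are at or below a given distance in kb (horizontal axis, log scale), with the 8 distances inside Fto as red circles and the other 4 of the locus as blue triangles on the curve. All 8 of Fto lie below the chromosome's median of 89.0 kb and the other 4 lie above it.

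In score the regions of Fto lay near the middle of the list, and the locus as a whole lay lower. The 9 regions of Fto had a median score of 34 (23 to 61) and the 4 others 20.5 (13 to 52), and the 13 together had 23. The rest of chromosome 8 had a median of 35 (10 to 707), or 29 without 19 to 21 Mb, and the whole list had 33. The locus median of 23 was equal to the lower quartile of the whole list and of the rest of chromosome 8. Of the 9 in Fto, 5 were at or above the list's median and 2 had 55 or more, the upper quartile of the list. The highest score in the locus, 61, ranked 111 of the 461 regions of the chromosome. The dense placing in Fto was thus made of regions of middling score.

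The score 23 recurred. It was held by 4 of the 9 regions of Fto and by 5 of the 13 in the locus, and by 463 regions, or 9.31%, of the list. Widths were unremarkable, with a median of 361 bp in Fto (229 to 672) and 308 bp in the 4 others (221 to 369). The rest of the chromosome had 290 bp (219 to 4244). No region of the locus was wider than 672 bp. Together the regions covered 0.958% of Fto and 0.151% of chromosome 8.

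**Figure D5:**
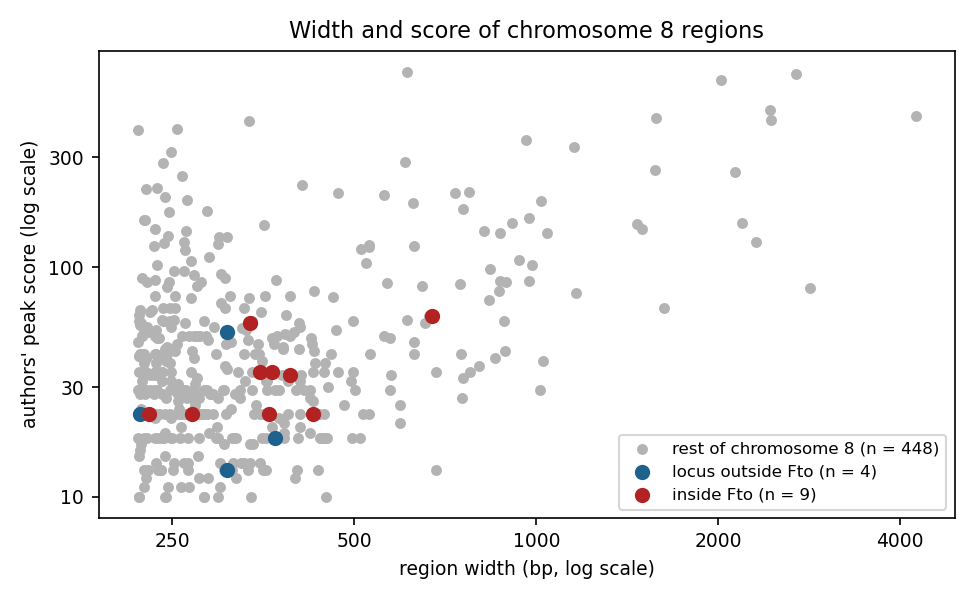
Authors' peak score (vertical axis, log scale) against region width in bp (horizontal axis, log scale) for the 9 regions inside Fto (red), the 4 others of the locus (blue) and the 448 on the rest of chromosome 8 (grey). The locus regions lie within the bulk of the chromosome, at scores of 13 to 61 and widths of 221 to 672 bp.

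Of 7 protein-coding neighbours on either side of the locus, 2 had a region in the body or within 50 kb, against 36.8% of all chromosome 8 protein-coding genes. Counting regions at or above the median score, 1 of the 7 had one, against 20.1%. Chd9, a chromatin remodeller gene of the CHD family and itself of like span to Fto, had 1 in its body (score 11) and 1 in its flank (score 18). Slc6a2, the noradrenaline transporter gene, had 2 in its flank (highest score 35). Crnde, the eighth gene of the list of neighbours, lies inside the locus, and its 1 region is the one counted for Irx5. Rbl2, Aktip, the matrix metalloproteinase gene Mmp2, Lpcat2 and Capns2 had none, and their nearest midpoints lay from 91.0 to 210.0 kb away.

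Of the other Iroquois genes, 1 of 3 had a region in the body or within 50 kb, where 26.3% of all protein-coding genes did; it was Irx1, with a score of 39 at 12.2 kb, and Irx2 and Irx4 had none. Of 8 genes of the AlkB family, to which Fto belongs, 2 had one: Alkbh7 (score 50, at 35.0 kb) and Alkbh5 (18, at 0.988 kb), which also encodes an RNA demethylase. With 10 kb flanks 1 of the 8 AlkB genes had one, against 11.7% of all protein-coding genes. Of 14 genes that write or read this methyl mark, 2 had one. The reader gene Ythdf2 had it in its body with a score of 107, and the writer subunit gene Virma had 2 regions with a highest score of 28. The median number of regions was 0 in these lists and over all protein-coding genes.

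Among 18 other genes of the ciliary transition zone, the compartment of Rpgrip1l, 7 had a region (38.9%, against the same 26.3% of all protein-coding genes). The 4 with the highest scores were Tctn2 (113, at 34.0 kb), Rpgrip1 (69, at 43.6 kb), Cep290 (66, in the body) and Tctn1 (55, at 10.5 kb). Their median span was 36.7 kb against 17.2 kb over all protein-coding genes. Of 18 genes of energy balance, 6 (33.3%, against 26.3%) had one, led by Tmem18 (111, at 5.63 kb), Etv5 (55, at 38.5 kb), the leptin gene Lep (42, at 18.5 kb) and the leptin receptor gene Lepr (28, in the body). Their median span was 31.4 kb. No gene of these lists or among the neighbours had more than 2 regions.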

How the data were processed

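FLAG-Zscan4 chromatin from 1 overexpressing J1 sample was sequenced. Reads were processed with deepTools, MACS2, Bowtie2 and cutadapt on mm10, per the submitters' processing notes, which give no versions or thresholds. Each region has a score that the authors deposited as a whole number of unstated scale. Region starts and ends, other values deposited by the authors, are in bp, and the text counts them from 1. The list gives no counts, so depth is unknown, and absence from the list does not show absence of binding. Region names run without a gap through the locus; in the whole list 32 of the numbers 1 to 5005 are missing.

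Genes came from RefSeq (GRCm38.p6): 49603 on the autosomes, X and Y, without those that start below 3 Mb on the autosomes or X. Exons and introns were not analysed here. Distances are from region midpoints to gene ends, or from region edges for promoter windows. Intervals are 95%. Those of rates cover counting error only, and those of medians were read from the ranked values. Counting was checked on simulated regions. Scripts used Python 3.11.15, numpy 2.4.6, pandas 2.3.3 and scipy 1.17.1. No p-value was computed, since the genes were chosen from this list; members, gene lists and alternatives were chosen with earlier results of these data known. Named genes were the 5 members, the 5 counterparts of like span with most regions (and a tie), the 5 genes nearest to Fto in regions per 100 kb, the 8 neighbours and up to 4 per related list.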

Additional observations from a re-analysis of the deposited data

How the results depend on the processing

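Of 40 summary values recomputed under an alternative setting, 29 were counted as unmoved (a count within 1.5 times, or inside the interval of the main value). The place of Fto among genes of like span, fixed by its choice, counted as unmoved in each alternative setting. On all autosomes 4 of 984 such genes reached its number or more, and this too counted as unmoved. The rule is also loose for medians of the 13 regions. The median spacing of 49.9 kb had an interval of 6.72 to 168 kb, so 16.8 kb in Fto alone counted as unmoved. The median score of 23 had an interval of 23 to 52, so 43.5 with the median score filter did too. The score filters moved the most, since by definition they drop regions everywhere. The median filter keeps 50.5% of the whole list, so a loss of about that size is no feature of the locus. With regions at or above the median score, the 5 genes had 5 regions in place of 11, all in Fto, and with those at or above the upper quartile they had 2. In those settings the 37 counterparts of Fto had at most 2, and 1 of them reached the 2 of Fto at the upper quartile. The ratio of the locus to the rest of chromosome 8 was 2.02 with the median filter and 1.22 with the upper quartile. Among the gene lists, a flank of 10 kb left 0 of 3 Iroquois, 1 of 8 AlkB and 2 of 14 adenosine methyl mark genes with a region. It left 4 of 18 ciliary and 3 of 18 energy balance genes, where 11.7% of all protein-coding genes had one. The median filter left 1 of 3 Iroquois, 1 of 8 AlkB and 1 of 14 adenosine methyl mark genes. It left 6 of 18 ciliary and 3 of 18 energy balance genes, where 13.9% of all protein-coding genes had a region. Of the 8 neighbours it left 1, where 20.1% of the protein-coding genes of chromosome 8 had one. Of 35 counts for single genes, 17 moved, 2 of them those of Fto under the score filters. In the gene body alone or with 10 kb flanks, Rpgrip1l, Irx3 and Irx5 had 0; with 100 kb Irx6 had 1 and Fto had 10. Merging regions closer than 1 kb joined 1 pair and left 8 in Fto. No paired analysis was possible because each group had 1 sample and only 1 list was used, and no replicate could be left out. Depth is unknown, so weak binding in the gaps around Rpgrip1l, Irx5 and Irx6 may have gone unlisted.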

Other observations

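Stretches with 6 or more region midpoints within 50 kb, a limit chosen after the spacing in Fto was seen, occurred 12 times on the nuclear chromosomes. Of these, 6 were on chromosome 8, and 5 of the 6 lay between 19 and 21 Mb. The sixth was the group in Fto. Only 2 of the 12 lay wholly inside 1 protein-coding gene by their midpoints, those in Fto and Ulk4. The median score of the Fto group was 34.5, and those of the other 11 ran from 40.5 (at Sfi1 on chromosome 11) to 1316 (at the start of chromosome 9), with 90 for the 10 regions in Ulk4. The score of its highest region, 61, was also below the highest score of each other stretch, which ran from 111 upward. These stretches share 1 library, and the values are a description.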
